A study of Homo sapiens with 8 samples.

Results

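The mRNA levels of 10 genes of the TGF-β pathway were examined in the bladder cancer lines UM-UC-3 and RT112, given control siRNA or siRNA to PAI-1. The genes were the ligands TGFB1 and TGFB2, the receptors TGFBR1, TGFBR2 and TGFBR3, the signal transducers SMAD2, SMAD3 and SMAD4, the inhibitor SMAD7 and the TGF-β-induced matrix protein gene TGFBI. They were taken by gene symbol from a table of 27475 human genes, and each symbol had 1 row there. The rule uses no measured value, but the genes were picked with earlier results of these data known. All 10 were above 0 in every library, so the main tests, which left out only genes at 0 throughout, held all 10.

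TGF-β is secreted in a latent complex and, once released, is bound by a type II receptor that recruits and phosphorylates a type I receptor. The active receptor phosphorylates SMAD2 and SMAD3, which join SMAD4, enter the nucleus and bind regulatory DNA of target genes, among them the gene of the inhibitor SMAD7. In epithelial cells the pathway is known for growth arrest, matrix production and the transition to a mesenchymal state, and in carcinomas it can act against or in favor of the tumor.

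UM-UC-3 and RT112 are established human lines. Each had been transfected for 72 h with 100 pmol of siRNA, either 3 pooled PAI-1 sequences (siPAI-1) or, as control, 3 pooled scrambled sequences (Scr), and polyadenylated RNA was sequenced. Every group (UM-UC-3 Scr, UM-UC-3 siPAI-1, RT112 Scr and RT112 siPAI-1) had 2 libraries, 8 in all, and all cells, controls included, had been transfected. The labels do not say what separates the libraries of a group, so p-values measure only the spread between these libraries, which may be technical, and each line is a single cell line. Levels are given in TPM, which are scaled to transcript length and sum to 1000000 in each library and so allow genes to be compared with each other. Differences are log2 differences of TPM + 0.1 with their standard error (SE) and an adjusted p over all genes tested with limma, and a gene was called when this p was under 0.05.

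Library depth, estimated from the steps of the lowest values, was 29.3 to 34.1 M reads (M, 1000000 reads). All 10 epithelial markers examined were called higher in RT112 Scr than in UM-UC-3 Scr. EPCAM was at 331.87 and 330.47 TPM in RT112 Scr against 0.14 and 0.46 TPM in UM-UC-3 Scr. VIM, the mesenchymal intermediate filament, was at 3142.15 and 2852.45 TPM in UM-UC-3 Scr against 7.81 and 6.04 TPM in RT112 Scr, and 4 of 5 mesenchymal markers were called lower in RT112. The 4 leukocyte markers summed to 0.11 to 0.63 TPM over the libraries. The endothelial markers summed to 0.79 to 6.20 TPM, the highest being TIE1 at 5.94 TPM in UM-UC-3 siPAI-1 replicate 2. Of the fibroblast markers, COL3A1 was at 128.85 to 147.66 TPM in UM-UC-3 and LUM at 10.67 to 17.97 TPM in RT112. The part of these markers in the results below was not tested. The library RT112 siPAI-1 replicate 1 stood apart from the other RT112 libraries in TGFB2, in several TGF-β target genes and in some markers. The mesenchymal marker CDH2 was at 7.65 TPM there against 17.94 to 20.58 TPM. The epithelial marker KRT7 was at 3277.94 TPM against 4135.84 to 4193.33 TPM, whereas CDH1, at 146.65 TPM, lay within 141.09 to 149.58 TPM. Log2 differences that rest on this library are given with and without it, whereas the ranges of ratios over the RT112 libraries include it.

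Because TGFB2 and TGFBI showed the largest differences between the lines, the 250 bases before their annotated starts (RefSeq, GRCh38.p14, plus strand, 5′ to 3′) are printed with the SMAD box CAGAC and the TATA box TATAAA in capitals. The TGFB2 stretch is chr1:218345086-218345335 and the TGFBI stretch is chr5:136028738-136028987, each directly before its gene. In the RefSeq annotation the TGFB2 stretch also overlaps the long noncoding RNA gene TGFB2-AS1, which was not analysed here, and the TGFBI stretch overlaps no gene.
TGFB2: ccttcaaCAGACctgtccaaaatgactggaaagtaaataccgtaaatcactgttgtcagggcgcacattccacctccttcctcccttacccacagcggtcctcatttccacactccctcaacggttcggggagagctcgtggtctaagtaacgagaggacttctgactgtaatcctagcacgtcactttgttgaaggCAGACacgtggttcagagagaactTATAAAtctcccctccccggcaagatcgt
TGFBI: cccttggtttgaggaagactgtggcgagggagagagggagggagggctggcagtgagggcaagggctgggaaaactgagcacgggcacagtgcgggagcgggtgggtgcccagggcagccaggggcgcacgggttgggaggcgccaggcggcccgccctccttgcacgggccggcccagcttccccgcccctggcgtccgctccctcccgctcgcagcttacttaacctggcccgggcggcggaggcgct
The TGFB2 stretch held CAGAC at positions -243 and -53 and TATAAA at -29, counted to the first base of the match from the start of the gene. The TGFBI stretch held neither. Searched on both strands, CAGAC occurred in 45.3% and TATAAA in 11.5% of 35116 promoter windows of 300 bases. In the first-listed window of each gene CAGAC was found for 4 of the 10 genes (TGFB2, TGFBR1, SMAD3 and SMAD7), and the longer SMAD palindrome GTCTAGAC, present in 0.202% of windows, for none of them. A match is a description of the letters and not a binding site.

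The 10 genes differed widely in level. In UM-UC-3 Scr the order from high to low was TGFB1, SMAD2, SMAD3, SMAD4, TGFBR2, TGFBI, TGFBR1, SMAD7, TGFBR3 and TGFB2, in which the ranges of SMAD2 and SMAD3, and of TGFBR1 and SMAD7, overlapped. In RT112 Scr the order was TGFBI, TGFB1, SMAD2, SMAD3, TGFBR2, SMAD4, TGFBR1, TGFBR3, SMAD7 and TGFB2, in which only TGFBR3 and SMAD7 overlapped with their neighbor. TGFB2 was the lowest of the 10 in every group, and TGFBI moved from sixth place to the top.

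**Figure D1:**
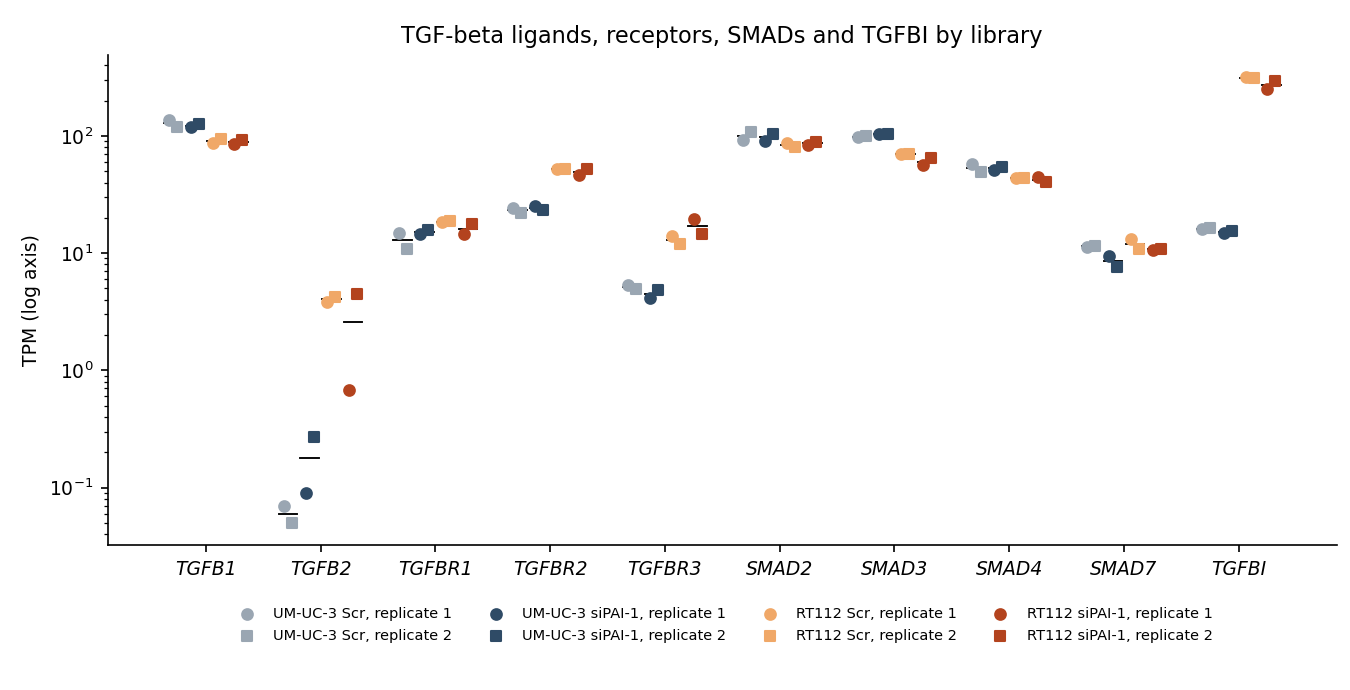
TPM (log axis) of the 10 genes in each of the 8 libraries. Points are libraries (circles replicate 1, squares replicate 2), black lines are group means, and colors are the 4 groups. TGFBI sits at 14.76 to 16.44 TPM in UM-UC-3 and at 251.55 to 314.88 TPM in RT112, and the RT112 siPAI-1 point of TGFB2 at 0.68 TPM lies below the other RT112 points.

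To ask how the pathway differs between the lines without knock-down, RT112 Scr was compared with UM-UC-3 Scr. Of the 10 genes, 7 were called, 5 higher and 2 lower in RT112, against 51.5% of all 20274 genes tested (25% called higher and 26.5% called lower). A difference of at least 2-fold was called higher in RT112 for 4 of the 10 genes (TGFB2, TGFBI, TGFBR3 and TGFBR2), against 15.5% of all genes, and lower for 0 of them, against 15.4%. The median difference of the 10 genes was 0.30 log2, and that of all genes was 0.

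TGFB1 (chr19:41330323-41353922, minus strand, GRCh38.p14 here and below) encodes the most abundant of the TGF-β ligands in these cells. It was at 135.33 and 120.09 TPM in UM-UC-3 Scr and 119.21 and 125.72 TPM in UM-UC-3 siPAI-1, and at 87.11 and 93.55 TPM in RT112 Scr and 84.42 and 92.96 TPM in RT112 siPAI-1. Every UM-UC-3 library was above every RT112 library, and within a line the siRNA groups overlapped. The difference between the lines in Scr was -0.50 log2 (SE 0.08, adjusted p = 0.00229, limma).

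TGFB2 (chr1:218345336-218444619, plus strand), a ligand that depends more than TGFB1 on the co-receptor TGFBR3 for binding, was nearly silent in UM-UC-3. Its levels were 0.07 and 0.05 TPM in UM-UC-3 Scr and 0.09 and 0.27 TPM in UM-UC-3 siPAI-1. In RT112 Scr it was at 3.85 and 4.20 TPM, and in RT112 siPAI-1 at 0.68 and 4.49 TPM. All RT112 libraries were above all UM-UC-3 libraries, and RT112 siPAI-1 replicate 1 was far below the other RT112 libraries. From the estimated depth and the longest annotated transcript, these levels stand for 7.33 to 33 reads per library in UM-UC-3 and 93 to 556 reads in RT112, which are upper estimates. In bulk RNA, fewer expressing cells and less RNA per cell cannot be told apart. The group means in Scr were 0.06 TPM ± 0.0141 (SD, n = 2) in UM-UC-3 and 4.03 TPM ± 0.247 (SD, n = 2) in RT112. The fitted difference was 4.69 log2 (SE 0.81, adjusted p = 0.00268, limma), and at levels this low it depends on the value added before the logarithm, being 2.24 log2 with 1 TPM and 5.86 log2 with 0.01 TPM, both called.

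TGFB1 made up 94.1% to 98.7% of the summed TPM of the 3 TGF-β ligand genes TGFB1, TGFB2 and TGFB3 in RT112 and 95.1% to 96.4% in UM-UC-3. The remainder was mostly TGFB3 in UM-UC-3 (3.44% to 4.83% of the sum). In RT112, TGFB2 held 0.795% to 4.55% and TGFB3 0.456% to 1.44%. The TGFB2 share of 0.795% and the TGFB1 share of 98.7% were those of RT112 siPAI-1 replicate 1. In the other RT112 libraries TGFB2 held 4.17% to 4.55% and TGFB1 94.1% to 95.2%.

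TGFBR2 (chr3:30606356-30694142, plus strand) encodes the type II receptor kinase that binds the ligand. It was at 24.33 and 22.12 TPM in UM-UC-3 Scr and 25.36 and 23.12 TPM in UM-UC-3 siPAI-1, against 52.65 and 52.47 TPM in RT112 Scr and 46.12 and 51.88 TPM in RT112 siPAI-1. The lines did not overlap, and the Scr difference was 1.18 log2 (SE 0.09, adjusted p = 6.45e-05, limma), a 2.26-fold higher level in RT112.

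TGFBR1 (chr9:99103647-99154192, plus strand), the type I receptor kinase that phosphorylates SMAD2 and SMAD3, was at 14.81 and 10.85 TPM in UM-UC-3 Scr and 14.53 and 15.76 TPM in UM-UC-3 siPAI-1. In RT112 it was at 18.50 and 18.67 TPM in Scr and 14.59 and 17.66 TPM in siPAI-1. The lines were apart in Scr and overlapped in siPAI-1. The Scr difference of 0.55 log2 (SE 0.17, adjusted p = 0.0318, limma) was called in 6 of 16 alternative settings, and without UM-UC-3 Scr replicate 2 it was 0.33 log2 (adjusted p = 0.134, limma).

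TGFBR3 (chr1:91680343-91906002, minus strand), or betaglycan, is a co-receptor that presents ligand to TGFBR2. Its level was 5.39 and 4.92 TPM in UM-UC-3 Scr and 4.15 and 4.84 TPM in UM-UC-3 siPAI-1, and 14.07 and 12.04 TPM in RT112 Scr and 19.35 and 14.55 TPM in RT112 siPAI-1. All RT112 libraries were above all UM-UC-3 libraries, with a Scr difference of 1.32 log2 (SE 0.18, adjusted p = 0.000926, limma). Endoglin (ENG), the other co-receptor of the family, ran the opposite way, at 72.27 and 66.66 TPM in UM-UC-3 Scr against 4.74 and 4.71 TPM in RT112 Scr (-3.85 log2, SE 0.09, adjusted p = 1.01e-06, limma). The ratio of TGFBR3 to ENG was accordingly 0.0603 to 0.0746 over the UM-UC-3 libraries and 2.56 to 3.82 over the RT112 libraries. TGFBR2 exceeded TGFBR1 1.47- to 2.04-fold in UM-UC-3 and 2.81- to 3.16-fold in RT112.

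SMAD2 (chr18:47808957-47930872, minus strand) and SMAD3 (chr15:67065602-67195169, plus strand) are the receptor-regulated transducers of TGF-β and activin. SMAD3 was at 96.87 and 100.45 TPM in UM-UC-3 Scr, 103.25 and 103.09 TPM in UM-UC-3 siPAI-1, 70.44 and 69.41 TPM in RT112 Scr and 55.91 and 64.14 TPM in RT112 siPAI-1. It was lower in every RT112 library than in any UM-UC-3 library, by -0.50 log2 in Scr (SE 0.07, adjusted p = 0.00129, limma). SMAD2 was at 92.38 and 107.94 TPM in UM-UC-3 Scr, 90.50 and 104.40 TPM in UM-UC-3 siPAI-1, 86.26 and 80.48 TPM in RT112 Scr and 84.37 and 88.46 TPM in RT112 siPAI-1. The lines were narrowly apart and SMAD2 was not called in Scr (-0.26 log2, 95% interval -0.50 to -0.02, adjusted p = 0.0707, limma), although it was called among genes of at least 1 TPM on average (adjusted p = 0.0433, limma). The ratio of SMAD3 to SMAD2 was 0.931 to 1.14 in UM-UC-3 and 0.663 to 0.862 in RT112.

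SMAD4 (chr18:51030213-51085042, plus strand), the partner shared by all receptor-regulated SMADs, was present in all libraries. It was at 57.33 and 49.04 TPM in UM-UC-3 Scr, 50.94 and 54.58 TPM in UM-UC-3 siPAI-1, 43.91 and 43.94 TPM in RT112 Scr and 44.73 and 40.11 TPM in RT112 siPAI-1. All RT112 libraries lay below all UM-UC-3 libraries. The Scr difference of -0.27 log2 (95% interval -0.50 to -0.04) missed the threshold (adjusted p = 0.0539, limma), and it passed in 3 of 16 alternative settings, among them FPKM in place of TPM (adjusted p = 0.0263, limma).

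SMAD7 (chr18:48919853-48950965, minus strand, on the chromosome of SMAD2 and SMAD4) recruits ubiquitin ligases to the active receptor and is itself induced by TGF-β. It was at 11.30 and 11.58 TPM in UM-UC-3 Scr, 9.45 and 7.65 TPM in UM-UC-3 siPAI-1, 13.06 and 10.90 TPM in RT112 Scr and 10.61 and 10.91 TPM in RT112 siPAI-1. The lines overlapped in Scr, where the difference was 0.06 log2 (95% interval -0.29 to 0.41, adjusted p = 0.787, limma). Set against the summed TPM of SMAD2 and SMAD3, SMAD7 amounted to 3.69% to 5.97% in UM-UC-3 and 7.15% to 8.33% in RT112.

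TGFBI (chr5:136028988-136063818, plus strand) encodes a secreted matrix protein that binds collagens and integrins, and its gene was isolated as one induced by TGF-β. It was at 15.92 and 16.44 TPM in UM-UC-3 Scr and 14.76 and 15.48 TPM in UM-UC-3 siPAI-1. In RT112 Scr it was at 314.88 and 312.35 TPM and in RT112 siPAI-1 at 251.55 and 296.51 TPM. The lines were separated by a wide gap, with a Scr difference of 4.27 log2 (SE 0.08, adjusted p = 6.17e-07, limma), a 19.3-fold higher level in RT112. TGFB1, in contrast, was higher in UM-UC-3, so that the ratio of TGFBI to TGFB1 was 0.118 to 0.137 in UM-UC-3 and 2.98 to 3.61 in RT112.

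The same line difference was then taken between the siPAI-1 groups. Both line differences came from 1 fit over the 8 libraries and share its estimate of the spread, so the siPAI-1 comparison is not an independent repeat. Again 7 of the 10 genes were called, against 52.1% of all genes. TGFBI (4.17 log2, adjusted p = 5.89e-07, limma), TGFB2, TGFBR3 and TGFBR2 were higher in RT112, and TGFB1, SMAD3 and SMAD4 were lower. SMAD4 passed here (-0.32 log2, adjusted p = 0.031, limma), in 10 of 16 alternative settings as well, and without RT112 siPAI-1 replicate 2 it was -0.24 log2 and not called (adjusted p = 0.16, limma). TGFBR1 did not pass (0.08 log2, 95% interval -0.32 to 0.49, adjusted p = 0.721, limma). The TGFB2 difference of 2.84 log2 (SE 0.81, adjusted p = 0.0237, limma) was called in 7 of 16 alternative settings. It was 4.11 log2 without RT112 siPAI-1 replicate 1 (adjusted p = 0.00362, limma) and 1.56 log2 without RT112 siPAI-1 replicate 2, where it was not called (adjusted p = 0.0586, limma). With 1 TPM added before the logarithm it was 1.37 log2 and not called (adjusted p = 0.0628, limma), and without UM-UC-3 siPAI-1 replicate 1 it was 2.35 log2 with the largest adjusted p of these settings (0.161, limma).

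**Figure D2:**
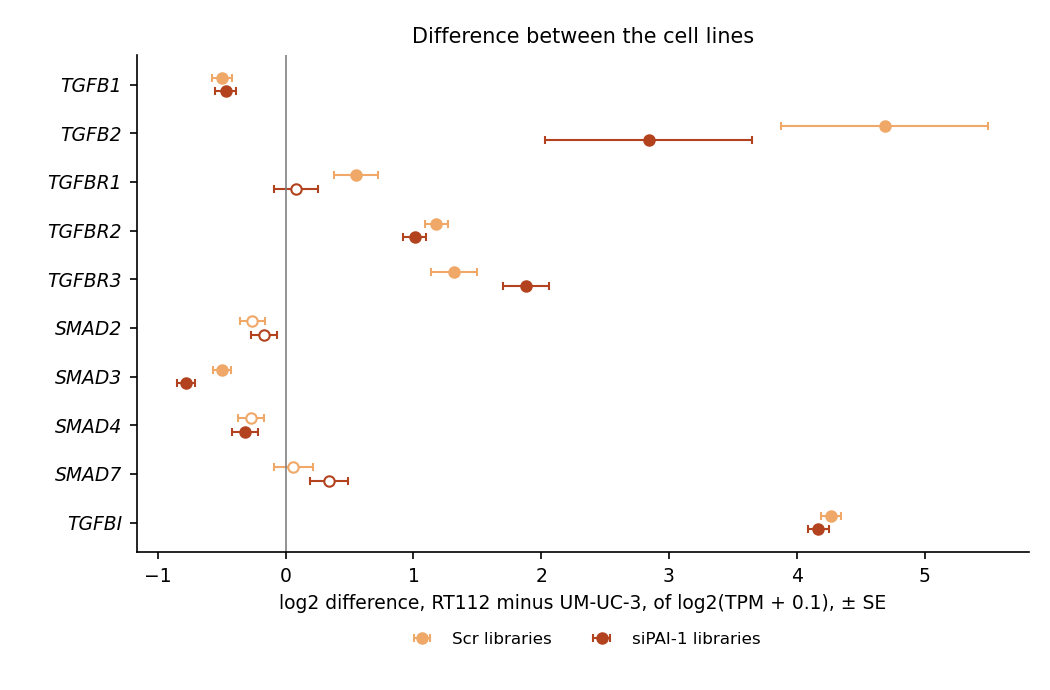
Log2 differences between RT112 and UM-UC-3 for the 10 genes in the Scr and the siPAI-1 libraries, on the scale of log2(TPM + 0.1). Bars are the SE from limma, filled points were called and open points were not. TGFB2 (4.69 and 2.84) and TGFBI (4.27 and 4.17) stand to the right of the other genes.

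To ask whether PAI-1 knock-down moved the pathway, siPAI-1 was compared with Scr within each line. None of the 10 genes was called in UM-UC-3 or in RT112 by limma, and 0% of all genes were called in either line (18528 genes were tested for UM-UC-3, 18437 for RT112). At an unadjusted p under 0.05, 1 of the 10 genes passed in UM-UC-3, against 6.01% of all genes, and 0 in RT112, against 5.77%. The median difference of the 10 genes was -0.02 log2 in UM-UC-3 and -0.13 log2 in RT112, beside -0.01 and 0.01 log2 for all genes. As no gene at all was called, these tests cannot show that the 10 genes were unchanged.

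In UM-UC-3 the gene with the smallest p was SMAD7, at 11.30 and 11.58 TPM in Scr and 9.45 and 7.65 TPM in siPAI-1. Both siPAI-1 libraries were below both Scr libraries, with a difference of -0.42 log2 (95% interval -0.82 to -0.03, adjusted p = 0.819, limma), or -0.27 log2 without UM-UC-3 siPAI-1 replicate 2. The siPAI-1 libraries also lay wholly below the Scr libraries for TGFBR3 and TGFBI and wholly above them for TGFB2 and SMAD3, which makes 5 of the 10 genes, whereas 32.2% of all genes tested in UM-UC-3 were apart in this way. Their differences were -0.20 log2 for TGFBR3, -0.10 log2 for TGFBI, 0.73 log2 for TGFB2 and 0.06 log2 for SMAD3. That of TGFB2 was 0.15 log2 with 1 TPM added before the logarithm and 0.25 log2 without UM-UC-3 siPAI-1 replicate 2. The siRNA groups overlapped for the other 5 genes. TGFB1 was at -0.06 log2 (95% interval -0.26 to 0.14), TGFBR1 at 0.25 log2 (-0.20 to 0.71), TGFBR2 at 0.06 log2 (-0.19 to 0.32), SMAD2 at -0.04 log2 (-0.32 to 0.24) and SMAD4 at -0.01 log2 (-0.26 to 0.24). The interval of every gene but SMAD7 held 0.

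In RT112 the largest difference was that of TGFB2, -1.12 log2 (SE 0.88, 95% interval -3.44 to 1.19, adjusted p = 0.838, limma). It rested on RT112 siPAI-1 replicate 1, at 0.68 TPM against 4.49 TPM in the other siPAI-1 library, and without that library it was 0.16 log2 (adjusted p = 0.831, limma). SMAD3 was lower in both siPAI-1 libraries, by -0.22 log2 (95% interval -0.45 to 0.01, adjusted p = 0.838, limma), or -0.12 log2 without that library. TGFBR3 was higher in both, at 0.36 log2 (95% interval -0.12 to 0.85, adjusted p = 0.838, limma), or 0.16 log2 without it. TGFBI (-0.20 log2), TGFBR1 (-0.21 log2) and TGFBR2 (-0.10 log2) were also below Scr in both siPAI-1 libraries, and were at -0.08, -0.07 and -0.02 log2 without replicate 1. Together 5 of the 10 genes were apart in RT112, against 32.7% of all genes. TGFB1 (-0.03 log2, 95% interval -0.23 to 0.18), SMAD2 (0.05 log2, -0.13 to 0.23), SMAD4 (-0.05 log2, -0.27 to 0.17) and SMAD7 (-0.15 log2, -0.53 to 0.24) overlapped between the siRNA groups, and all 10 intervals held 0. RT112 siPAI-1 replicate 1 was the lowest of the 4 RT112 libraries for 7 of the 10 genes, and for 29.0% of 12198 genes of at least 1 TPM on average.

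**Figure D3:**
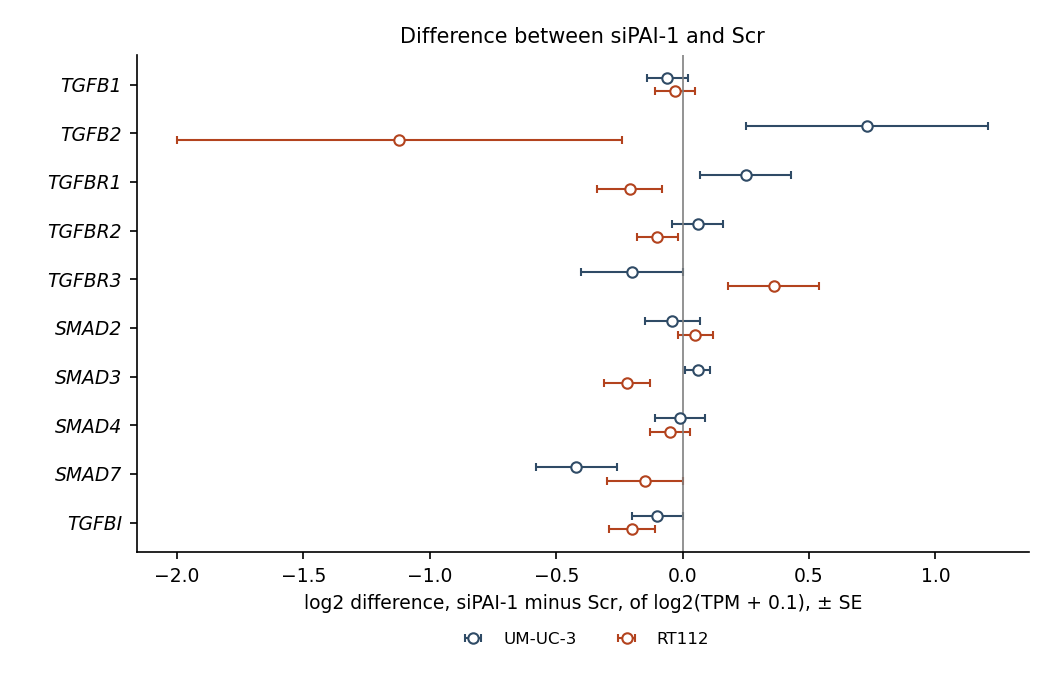
Log2 differences between siPAI-1 and Scr for the 10 genes in UM-UC-3 and RT112, on the scale of log2(TPM + 0.1), with the SE from limma as bars. All points are open because no gene was called. The bar of TGFB2 in RT112 (SE 0.88) is the widest.

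The difference between the knock-down effects of the lines was tested itself, as an interaction over the 8 libraries. None of the 10 genes was called, and 0% of the 20274 genes tested were called by limma. At an unadjusted p under 0.05, 1 of the 10 genes passed, SMAD3, with an effect lower by -0.29 log2 in RT112 than in UM-UC-3 (SE 0.10, 95% interval -0.54 to -0.04, adjusted p = 0.694, limma), against 6.76% of all genes. TGFBR3 had 0.56 log2 (95% interval -0.06 to 1.18, adjusted p = 0.767, limma) and TGFB2 -1.85 log2 (95% interval -4.60 to 0.89, adjusted p = 0.846, limma). Without RT112 siPAI-1 replicate 1 all 3 were smaller, SMAD3 at -0.19 log2, TGFBR3 at 0.36 log2 and TGFB2 at -0.58 log2.

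Other genes of the pathway were described from lists of its further arms, with the line difference in Scr as the measure. Of all genes tested, 25% were called higher and 26.5% lower in this comparison, and the counts below stand beside these shares. Of 11 genes of latency and activation, which store TGF-β in the matrix and release it, 7 were called higher and 1 lower in RT112, with a median of 1.06 log2 beside 0 for all genes. ITGB6, the β chain of an integrin that activates latent TGF-β on epithelia, was at 0.13 and 0.16 TPM in UM-UC-3 Scr and 69.25 and 59.70 TPM in RT112 Scr (8.04 log2). Thrombospondin (THBS1), another activator, was at 3.32 and 4.86 TPM against 299.34 and 293.09 TPM (6.17 log2). FURIN, the protease that cleaves the TGF-β precursor, differed by 2.99 log2 and the latent TGF-β binding protein gene LTBP3 by 2.77 log2. LTBP4, which the naming rule did not cover and which was picked after its value was seen, went the other way, from 54.82 and 46.76 TPM in UM-UC-3 Scr to 8.76 and 8.73 TPM in RT112 Scr (-2.52 log2).

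The third ligand and 2 receptors of the same family were all called lower in RT112. TGFB3 was at 6.75 and 6.10 TPM in UM-UC-3 Scr and 1.33 and 0.48 TPM in RT112 Scr (-2.84 log2, adjusted p = 0.00676, limma). It lost its call in 3 of 16 alternative settings, each without a Scr library (adjusted p up to 0.0633, limma). ACVRL1, an endothelial type I receptor, was at 0.36 and 0.28 TPM in UM-UC-3 Scr and at 0.01 and 0 TPM in RT112 Scr, and its call was lost in 2 settings of the same kind (adjusted p up to 0.0646, limma).

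In the activin arm, whose ligands also signal through SMAD2 and SMAD3, 3 of 10 genes tested were called higher and 1 lower in RT112, the higher share being near that of all genes, and TDGF1 was at 0 in all libraries. Follistatin (FST), which traps activin, was at 0.34 and 0.11 TPM in UM-UC-3 Scr and 2.12 and 2.22 TPM in RT112 Scr (2.90 log2). INHBB, an activin subunit, differed by 2.52 log2 and GDF11, a ligand of the same arm, by -1.20 log2. The sum over the genes of this arm was 60.6 to 62.9 TPM in UM-UC-3 Scr and 70.2 to 73.1 TPM in RT112 Scr. Most of it came from FSTL3, an activin-binding protein picked after its values were seen, at 25.56 and 24.74 TPM in UM-UC-3 Scr and 43.38 and 46.35 TPM in RT112 Scr, and from GDF11, at 22.38 and 20.69 TPM against 9.70 and 8.99 TPM.

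The BMP arm, which uses SMAD1, SMAD5 and SMAD9, was called lower in RT112 for 7 of 16 genes and higher for 3, with a median of -0.49 log2. The ligand BMP6 was at 8.84 and 8.80 TPM in UM-UC-3 Scr and 0.36 and 0.09 TPM in RT112 Scr (-4.92 log2), and the receptor BMPR1B at 5.78 and 4.62 TPM against 0.36 and 0.09 TPM (-4.16 log2). SMAD9 was at 1.13 and 1.57 TPM in UM-UC-3 Scr and at 0.01 and 0 TPM in RT112 Scr. ID2, an inhibitor of helix-loop-helix factors induced by BMP, was at 31.53 and 21.59 TPM against 2.78 and 2.36 TPM (-3.30 log2). ID1, of the same kind and picked after its value was seen, was the most abundant gene of the arm in RT112 Scr and went the other way, at 82.10 and 71.91 TPM against 284.83 and 307.05 TPM (1.94 log2). The sum over the arm was 322 to 360 TPM in UM-UC-3 Scr and 470 to 488 TPM in RT112 Scr.

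Among 14 SMAD regulators 5 were called higher and 4 lower in RT112, with a median of 0.04 log2, shares not far from those of all genes. The 4 with the largest differences were higher in RT112. PMEPA1, which keeps SMAD2 and SMAD3 from the receptor, was at 17.32 and 15.16 TPM in UM-UC-3 Scr and 253.73 and 228.90 TPM in RT112 Scr (3.89 log2). The pseudoreceptor gene BAMBI differed by 3.52 log2, the co-repressor gene SKIL by 2.75 log2 and SMAD6, an inhibitory SMAD that acts mainly on BMP signals, by 2.11 log2. SMURF2, a ubiquitin ligase that SMAD7 recruits, was lower in RT112 (-1.54 log2), as were the co-repressor genes TGIF2 (-1.09 log2) and SKI (-0.81 log2), all 3 picked after their values were seen. SMAD7, the inhibitory SMAD of the TGF-β branch, had 0.06 log2 in the same comparison.

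Of the TGF-β target genes, 12 of 16 tested were called higher and 2 lower in RT112, with a median of 1.77 log2, and COL1A2 and CDKN2B were at 0 in all libraries. The list shares ITGB6, THBS1, LTBP2, SKIL and PMEPA1 with the lists above. TAGLN, an actin-binding protein, was at 0.84 and 1.46 TPM in UM-UC-3 Scr and 152.90 and 154.15 TPM in RT112 Scr (6.99 log2). ANGPTL4, a lipoprotein lipase inhibitor, was at 44.32 and 33.76 TPM in UM-UC-3 Scr and 0.09 and 0.11 TPM in RT112 Scr (-7.60 log2). CTGF, a matricellular protein gene picked after its value was seen, was at 122.16 and 101.46 TPM against 1.97 and 1.54 TPM (-5.92 log2). Some of these genes, ITGB6 among them, are also epithelial genes, and epithelial markers moved with them between the lines by a median of 8.19 log2. The part of that difference in their values was not tested.

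**Figure D4:**
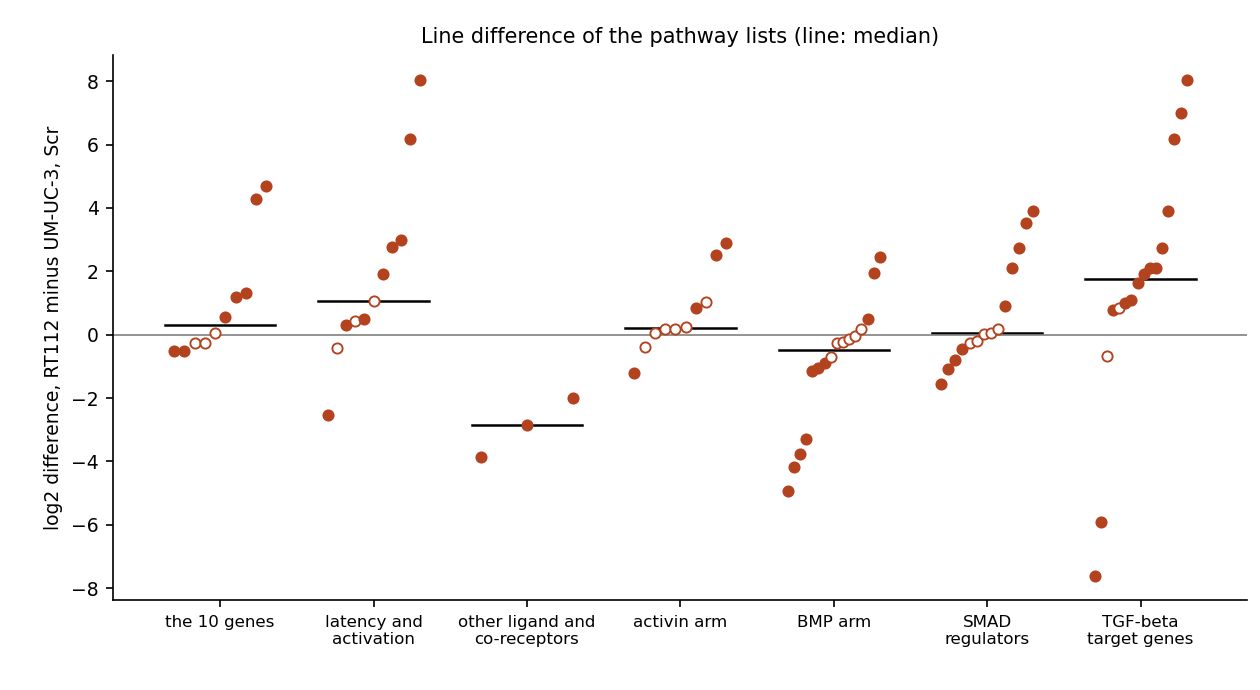
Log2 difference between RT112 Scr and UM-UC-3 Scr for each gene of the 10 and of 6 further lists, on the scale of log2(TPM + 0.1). Filled points were called, open points were not, and black lines are medians. The target genes have a median of 1.77 and the BMP arm of -0.49. The 3 genes labelled other ligand and co-receptors are all below 0. They are the ligand gene TGFB3, the co-receptor gene ENG and ACVRL1, which encodes a type I receptor.

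No gene of the 6 lists was called in either knock-down comparison by limma. At an unadjusted p under 0.05, 2 of 10 genes of the activin arm, 3 of 16 of the BMP arm and 2 of 16 target genes passed in UM-UC-3, and 2 of 10 genes of the activin arm and 1 each of the latency genes, the BMP arm and the SMAD regulators in RT112. Of all genes 6.01% passed in UM-UC-3 and 5.77% in RT112. The median difference of the 16 target genes tested was -0.05 log2 in UM-UC-3 and -0.33 log2 in RT112, beside -0.01 and 0.01 log2 for all genes. In RT112 this median was -0.10 log2 without RT112 siPAI-1 replicate 1 and -0.65 log2 without RT112 siPAI-1 replicate 2. Of the 14 target genes of at least 1 TPM on average in RT112, 11 had their lowest value in RT112 siPAI-1 replicate 1, against 29.0% of all such genes, and 1 in RT112 siPAI-1 replicate 2. TAGLN was at 46.82 TPM in replicate 1 and 114 TPM in replicate 2, against 152.90 and 154.15 TPM in Scr. THBS1 was at 120.77 and 239.35 TPM, PMEPA1 at 124.87 and 233.87 TPM, SKIL at 38.10 and 70.76 TPM and FN1 (fibronectin) at 58.25 and 108.44 TPM. Relative to the mean of Scr, the median of the 14 genes was -0.65 log2 in replicate 1 and -0.11 log2 in replicate 2. Below that mean were 11 of the 14 genes in replicate 1 and also 11 in replicate 2. The 2 libraries thus differed in the size of the decrease more than in its direction. The share of all genes below the mean of Scr was not counted. In UM-UC-3 siPAI-1, where also 14 target genes reached 1 TPM, replicate 1 was the lowest of the 4 libraries for 3 of them and replicate 2 for 4. TGFB2 was low in RT112 siPAI-1 replicate 1, where most target genes had their lowest value. This is 1 library, and the cause was not tested.

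**Figure D5:**
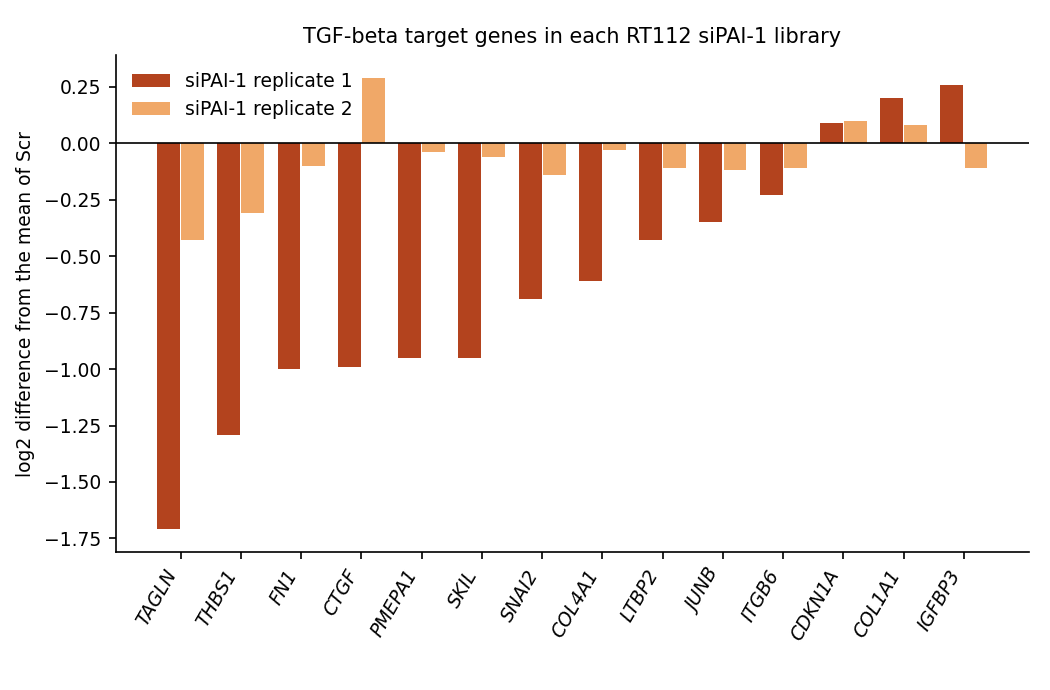
Log2 difference of each RT112 siPAI-1 library from the mean of the RT112 Scr libraries for the 14 TGF-β target genes of at least 1 TPM on average. Bars start at 0 and there is 1 library per bar, so no error is drawn. TAGLN (-1.71 and -0.43) and THBS1 (-1.29 and -0.31) are the lowest in replicate 1, where 3 genes are at least 2-fold below Scr and in replicate 2 none is.

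Across the 8 libraries the genes whose log2 TPM ran most like that of TGFB2 were COL4A1 (Pearson r = 0.9952), CAST (r = 0.9925) and ZNF114 (r = 0.9916), of 12803 genes of at least 1 TPM on average. For TGFB1, which with SMAD3 had the largest called decrease in Scr (both -0.50 log2, while SMAD3 had the larger one in siPAI-1), they were RITA1 (r = 0.9931), KIAA2013 (r = 0.993) and TNRC6C (r = 0.9928). The libraries fall into 2 cell lines, so these values partly restate the line difference and are given as a description. COL4A1, which is also in the list of TGF-β target genes, shared the low value of TGFB2 in RT112 siPAI-1 replicate 1. There COL4A1 was at 31.55 TPM against 47.05 to 48.32 TPM in the other RT112 libraries. TGFB2 was at 0.68 TPM against 3.85 to 4.49 TPM. How far the ranking for TGFB2 rests on this library was not tested.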

How the data were processed

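RNA-seq of UM-UC-3 and RT112 cells with siPAI-1 or Scr was analysed, 2 libraries per group, grouped by their labels. What the authors deposited are gene tables on GRCh38 with 2 decimals, 1 of TPM and 1 of FPKM. The deposited TPM values sum to 1000000 per library within rounding, and the deposited FPKM values do not share a sum. The submitters' processing notes name STAR 2.5.0 and RSEM 1.2.25, and the study's methods name cutadapt, STAR and featureCounts, so which program made the values is not settled here. The study's text speaks of 3 independent replicate experiments of the knock-down, and the tables hold 2 libraries per group. For the tests limma took the place of DESeq2, which was not used because it needs counts.

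Entries for 92 ERCC spike-ins, at 0 throughout, were left out. Of 27475 genes 7201 were at 0 in all libraries. On log2(TPM + 0.1), a scale that understates differences of low genes, limma 3.58.1 (R 4.3.3) was run with lmFit and a trended eBayes, two-sided, and p-values were adjusted by Benjamini-Hochberg over every gene that any library of the fit listed above 0 TPM. Line differences and the interaction came from 1 fit over 8 libraries with 4 group means, and each knock-down from its own line's 4 libraries. The code was tested on simulated data. Depth was estimated from FPKM steps of short genes with 1 transcript, searched between 20 and 45 M reads, and covers counting error only. Stretches before gene starts and motif shares came from RefSeq (GRCh38.p14).

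All 10 genes are named. From each further list, up to 4 genes called in Scr with at least a 2-fold difference are named, the largest first, and, for the gene with the largest called difference in each direction, the 3 genes with the highest Pearson r. Some genes of this rule and of the lists are not reported here and are left out of the list counts. The members and lists were chosen with earlier results of these data known. Alternatives were other pseudocounts (1 and 0.01 TPM), FPKM, rescaling by the median ratio, a mean of at least 1 TPM, no trend, other samples in the fit, a replicate block and each library left out. Under a mean of at least 1 TPM, TGFB2 was not tested in the UM-UC-3 knock-down, where it was too low.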

Additional observations from a re-analysis of the deposited data

Results flagged for a closer look

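SMAD3 was picked out because its siPAI-1 libraries lay wholly above Scr in UM-UC-3 and wholly below Scr in RT112, with a difference between the knock-down effects of -0.29 log2 (RT112 minus UM-UC-3, adjusted p = 0.694, limma interaction), which did not pass. TGFBR3 was picked out for the opposite pattern, wholly below Scr in UM-UC-3 and wholly above it in RT112, with 0.56 log2 (adjusted p = 0.767, limma interaction), which did not pass either. The siRNA groups were apart for 32.2% of all genes tested in UM-UC-3 and 32.7% in RT112. The share of all genes apart in opposite directions in the 2 lines was not counted. Both genes were picked by this pattern, so their interaction values are a description. The SMAD3 difference in UM-UC-3 was only 0.06 log2.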

How the results depend on the processing

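The count of the 10 genes called stayed between 6 and 9 for the line difference in Scr, between 5 and 7 in siPAI-1 and at 0 in both knock-downs and the interaction. TGFB1, TGFB2, TGFBR2, TGFBR3, SMAD3 and TGFBI were called in Scr in all 16 alternatives run, whereas TGFBR1, SMAD2 and SMAD4 crossed the threshold in some. In siPAI-1, TGFB2, SMAD4 and SMAD7 crossed it in some. Over all genes, the count called in UM-UC-3 was 1 with a mean of at least 1 TPM, that in RT112 was 2 in the fit over 8 libraries, and that of the interaction was 7 without trend and 0 to 123 with a library left out (123 without RT112 siPAI-1 replicate 2, 44 without UM-UC-3 siPAI-1 replicate 1, 20 without RT112 siPAI-1 replicate 1 and 1 without UM-UC-3 Scr replicate 2), none of them among the 10. The cause was not tested. Signs turned only with a library left out, and only for differences that were not called. The line difference then ranged from -0.07 to 0.19 log2 for SMAD7 in Scr and from -0.05 to 0.22 log2 for TGFBR1 in siPAI-1. In UM-UC-3 the knock-down difference ranged from -0.14 to 0.03 log2 for TGFB1, -0.01 to 0.13 for TGFBR2, -0.15 to 0.07 for SMAD2, -0.12 to 0.10 for SMAD4 and -0.06 to 0.03 for the median of the target genes. In RT112 it ranged from -0.10 to 0.04 log2 for TGFB1, -2.40 to 0.16 for TGFB2 and -0.13 to 0.03 for SMAD4, and the median of the target genes, whose sign did not turn, from -0.65 to -0.10. The interaction ranged from -0.05 to 0.12 log2 for TGFB1, -0.02 to 0.20 for SMAD2, -0.16 to 0.07 for SMAD4 and -0.22 to 0.02 for TGFBI. Groups share replicate numbers, but deviations of same-numbered libraries did not go together (r from -0.0431 to 0.0981), so the numbers were not taken to pair them. With a replicate block 6 of the 10 genes were called in Scr (10298 of all genes), 7 in siPAI-1 (10455 of all genes) and 0 in the other comparisons. Leaving a library out leaves 1 sample in its group, which is then assumed to vary like the others. With 2 libraries per group, small knock-down effects could be missed.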
